A study of Mus musculus with 32 samples.

Results

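The myostatin, activin and TGF-beta branch of signalling was followed in denervated GAS (gastrocnemius) muscle through 10 genes chosen by name: the ligands Mstn, Inhba, Tgfb1 and Tgfb2, the extracellular binding proteins Fst, Fstl1 and Fstl3, the receptor Acvr2b, and the intracellular proteins Smad3 and Smad7. All 10 were found among the 33397 genes of the deposited table and all 10 passed the filter on low values, as did 22071 genes in total. RNA sequencing covered whole GAS muscle of male C57BL/6 mice at 0, 1, 3, 5, 7, 14, 21 and 28 d post denervation. The strain is also given as C57BL/6J. Each time point had 4 samples, 32 in all. The stated age of 6 to 8 weeks was taken as that at surgery, so mice of later time points were older when sampled. No group without denervation is among the samples of the later times, so age and time since surgery ran together with time since denervation. The part of age or surgery in the changes was not tested. The labels list transection of the sciatic nerve for every sample, 0 d included, while the study describes a sham operation for its controls, and the 0 d samples served as the reference in every comparison with 0 d. No allele or transgene is listed for these samples, and surgery in the study was done under isoflurane with buprenorphine against pain. The labels do not tie the numbered samples of a time point to named animals, so the p-values measure the spread between these samples.

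Ligands of this family bind a pair of type II receptors, which then activate type I receptors. The activated receptors phosphorylate Smad2 and Smad3, which enter the nucleus with Smad4 and change transcription, and Smad7 blocks that step at the receptor. Myostatin is made by muscle fibres and restrains muscle mass, activins act through the same type II receptors, follistatin traps both, and TGF-beta proteins are best known in muscle for driving matrix production.

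The values were FPKM, the fragments of a gene scaled by the length of its exons and by the fragments of the whole sample. Converted back with exon lengths, the libraries held 14189243 to 17546708 fragments. Mitochondrial genes took 14.5% to 18.2% of them at 0 d, and between 6.70% and 17.1% at later times. FPKM divides by the total of each sample. The median gene among those averaging 1 FPKM or more lay 0.12 to 0.32 above 0 d on the log2 scale at the 7 later times, and fold changes after median-ratio scaling, which removes that shift, are given beside the main ones where they matter. Muscle fibre markers summed to between 20468 and 40654 FPKM in every sample, against 0 to 0.448 FPKM for 3 retina markers, a tissue that the extraction text names. The denervation-response genes Chrng and Myog had a median sum of 1.91 FPKM at 0 d and 25.7 FPKM at 1 d, and reached 236 FPKM at 3 d. A single library of 3 d stood apart from the other 3 of its time point, with a fibroblast marker sum of 74.2 FPKM against 234 to 355 FPKM and a macrophage marker sum of 277 FPKM against 466 to 938 FPKM.

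A gene was called where limma, fitted to log2(FPKM + 1) over all 32 samples, gave an adjusted p (Benjamini-Hochberg) under 0.05 and the change reached 1.5-fold, on a scale that understates changes of low genes. By this rule 6 of the 10 genes were called against 0 d at 1 or more time points, where 33.2% of all tested genes were, and after median-ratio scaling it was again 6, with 28.7% of tested genes. Acvr2b was the gene called at all 7 times, as were 3.03% of tested genes. At 1 d 2 genes were called (8.84% of tested genes), then 2 on day 3 (19.3%), 3 on day 5 (18.8%), 4 on day 7 (19.5%), 4 on day 14 (18.5%), 4 on day 21 (15.7%) and 5 on day 28 (18.3%). The groups did not overlap 0 d for 2, 3, 5, 4, 6, 6 and 6 of the 10 genes in the same order, and for 28.5%, 35.3%, 44.8%, 40.9%, 44.9%, 42.9% and 45.7% of tested genes, so separation from 0 d was common. Mstn and Acvr2b were lower, Tgfb1 was higher from 5 d and Fst from 7 d on, Tgfb2 was lower at 1 d alone, and Smad3 was higher at 5 d and 28 d. Inhba, Fstl1, Fstl3 and Smad7 were not called against 0 d at any time. Without the 3 d library that stood apart, 5 genes instead of 2 were called at 3 d, and 20.98% of tested genes.

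**Figure D1:**
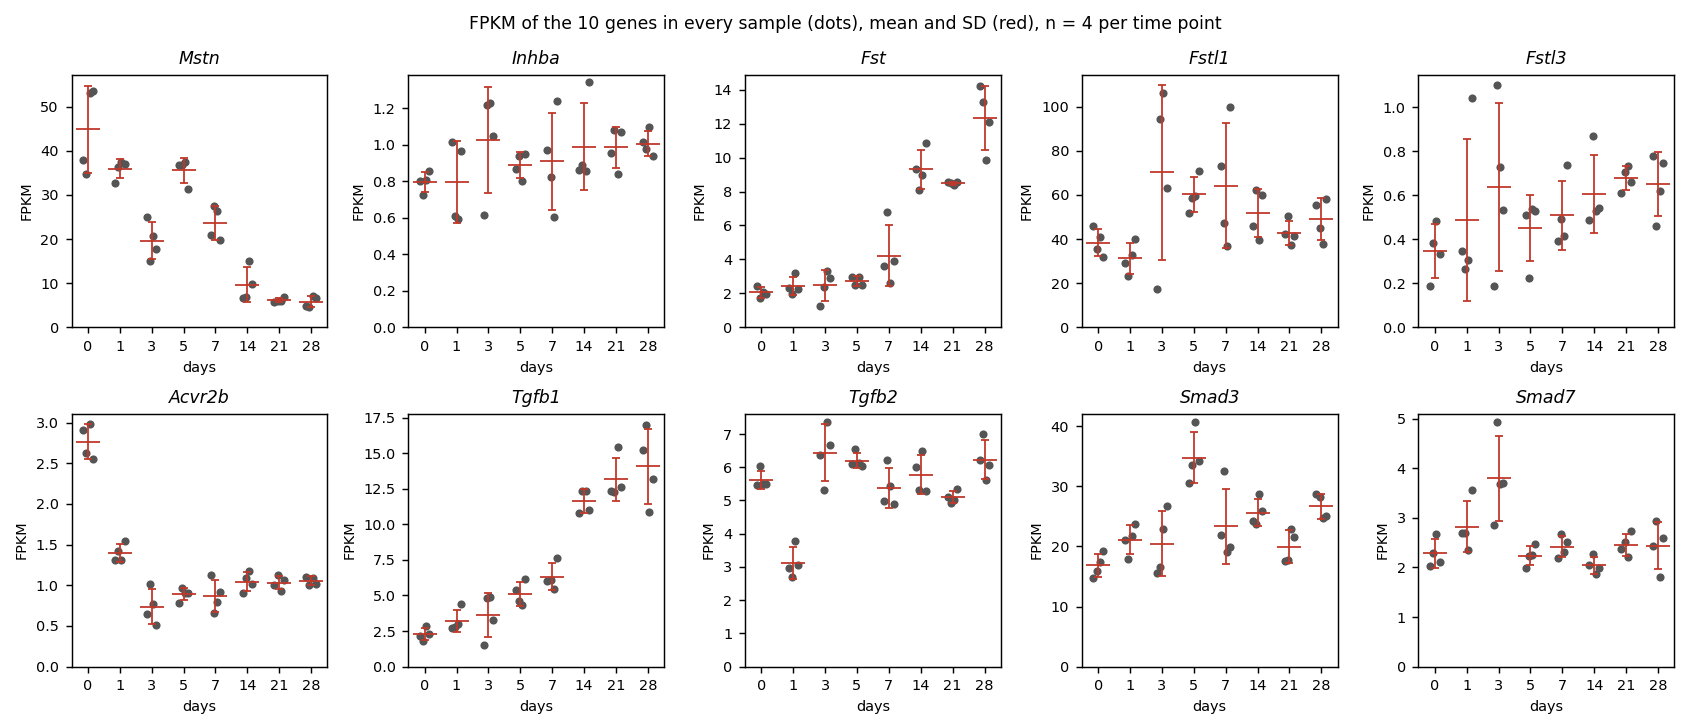
FPKM of the 10 genes (vertical axes, linear and starting at 0) against days post denervation (horizontal axes). Dots are the 4 samples of each time point, red bars their mean and SD. Mstn went from a mean of 44.8 at 0 d to 5.76 at 28 d, while Fst went from 2.05 to 12.4 and Tgfb1 from 2.27 to 14.1.

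Mstn and Tgfb1 moved in opposite directions, Tgfb2 dipped at 1 d and was back at 3 d, and Acvr2b fell and stayed low. The stretches just upstream of the gene starts are therefore shown for these 4 genes. Each is the 150 bases before the start of the gene model, from RefSeq sequence of GRCm38.p6, 5′ to 3′ on the strand of the gene. Capitals mark the E-box CANNTG, the letters bound by myogenic factors such as MyoD, the Smad-binding letters CAGAC and the TATA sequence TATAAA, the last 2 searched on both strands. The Mstn stretch is chr1:53061490-53061639 on the plus strand, the Tgfb2 stretch chr1:186705990-186706139 on the minus strand, the Acvr2b stretch chr9:119401968-119402117 on the plus strand and the Tgfb1 stretch chr7:25686852-25687001 on the plus strand.
Mstn: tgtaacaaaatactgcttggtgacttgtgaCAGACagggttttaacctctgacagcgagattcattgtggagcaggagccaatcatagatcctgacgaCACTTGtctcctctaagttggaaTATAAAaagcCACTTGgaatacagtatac
Tgfb2: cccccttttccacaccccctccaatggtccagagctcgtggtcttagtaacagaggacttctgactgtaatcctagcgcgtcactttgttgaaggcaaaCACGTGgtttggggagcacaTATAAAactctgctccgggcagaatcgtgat
Acvr2b: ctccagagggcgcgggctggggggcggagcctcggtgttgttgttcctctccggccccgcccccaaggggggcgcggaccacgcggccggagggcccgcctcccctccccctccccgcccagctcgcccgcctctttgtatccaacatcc
Tgfb1: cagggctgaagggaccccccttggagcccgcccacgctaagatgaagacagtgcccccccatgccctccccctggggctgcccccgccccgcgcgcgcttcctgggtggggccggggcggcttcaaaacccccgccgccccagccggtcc
The Mstn stretch held 2 E-boxes, 1 CAGAC and 1 TATAAA, and the Tgfb2 stretch held 1 E-box and 1 TATAAA. Those of Acvr2b and Tgfb1 held none of the 3 sets of letters. Over 32851 RefSeq promoters cut to the same length, 47.7% held CANNTG, 27.7% held CAGAC and 7.57% held TATAAA. A match in these letters is a description and not a measured site.

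Mstn, the gene of myostatin, lies on chromosome 1 from 53061640 to 53068079 on the plus strand (GRCm38) with 3 exons. It had the highest level of the 10 genes at 0 d, at 44.8 ± 9.94 FPKM (SD, n = 4). The 4 samples of 0 d held 38.0, 34.7, 53.1 and 53.6 FPKM, and those of 1 d held 32.8, 36.4, 37.4 and 37.1 FPKM. Groups at these times overlapped, and Mstn was not called at 1 d. At 3 d the samples held 24.9, 14.96, 20.8 and 17.8 FPKM, all below every sample of 0 d and of 1 d. At 5 d they held 36.7, 36.7, 37.4 and 31.4 FPKM, all above every sample of 3 d, so the level came back before it fell again. At 7 d they held 20.9, 27.4, 26.4 and 19.8 FPKM, below every sample of 5 d.

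The later fall of Mstn was deeper. Its samples held 6.63, 6.81, 15.1 and 9.86 FPKM at 14 d, then 5.75, 5.90, 6.02 and 6.75 FPKM at 21 d, and 4.84, 4.60, 7.07 and 6.52 FPKM at 28 d. None of these 12 samples reached the lowest sample of 7 d. The log2 fold change against 0 d was -1.15 ± 0.18 at 3 d (SE, limma adjusted p = 5.62e-06), -0.88 at 7 d (adjusted p = 0.000194), -2.16 at 14 d (adjusted p = 7.81e-11), -2.67 at 21 d (adjusted p = 1.14e-12) and -2.75 at 28 d (adjusted p = 4.98e-13). The mean at 28 d was 0.128 of that at 0 d. At 5 d the log2 fold change was -0.30 (limma adjusted p = 0.187), and after median-ratio scaling it was -0.69 and was called (adjusted p = 0.00878). Over the same time course the median sum of 5 muscle fibre markers went from 39486 FPKM at 0 d to 24988 FPKM at 3 d, 28590 FPKM at 5 d and 21651 FPKM at 28 d. In whole muscle, fewer cells of a type and less RNA per cell cannot be told apart.

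Steps between neighbouring time points, whose log2 changes use no 0 d sample although the error comes from the fit of all 32, were called 3 times for Mstn. The log2 change was -0.86 from 1 d to 3 d (limma adjusted p = 0.000435), 0.85 from 3 d to 5 d (adjusted p = 0.000851) and -1.27 from 7 d to 14 d (adjusted p = 7.71e-05). The steps from 5 d to 7 d, from 14 d to 21 d and from 21 d to 28 d were not called, with log2 changes of -0.58, -0.51 and -0.09. None of the 10 genes was called in these 3 steps, where 0.657%, 0.453% and 0.199% of tested genes were, except that Smad3, at -0.58 from 5 d to 7 d (limma adjusted p = 0.0328), lay just under the fold threshold and was called as lower when the first 5 d or the second 7 d sample was left out. From 7 d to 14 d, 3 of the 10 genes were called, against 0.634% of all tested genes, and these were Mstn, Fst and Tgfb1.

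Inhba, which encodes the subunit of activin A, lies on chromosome 13 from 16011851 to 16031621 on the plus strand. It stayed low throughout, with means from 0.796 FPKM at 1 d to 1.03 FPKM at 3 d and 60 to 143 fragments per sample. At 0 d the samples held 0.802, 0.723, 0.810 and 0.858 FPKM. At 28 d they held 1.02, 0.978, 1.10 and 0.937 FPKM, all above 0 d, yet the difference of 0.16 on the log2 scale had a 95% interval of -0.05 to 0.37 (limma adjusted p = 0.212) and was -0.02 after median-ratio scaling. No step between neighbouring times was called.

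Tgfb1 encodes the main TGF-beta ligand of injured tissue and lies on chromosome 7 from 25687002 to 25705077 on the plus strand. Its 0 d samples held 2.15, 1.79, 2.83 and 2.31 FPKM. At 1 d the samples held 2.71, 2.77, 2.97 and 4.40 FPKM, and at 3 d they held 1.54, 4.81, 4.86 and 3.30 FPKM. Both groups overlapped 0 d, and the lowest value of 3 d belonged to the library that stood apart. Without that library the log2 fold change at 3 d was 0.70 and was called, against 0.43 with it (limma adjusted p = 0.0563).

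From 5 d on every sample of Tgfb1 lay above every sample of 0 d. The values were 5.39, 4.58, 4.35 and 6.17 FPKM at 5 d, and 6.03, 6.10, 5.47 and 7.66 FPKM at 7 d. They were 10.8, 12.4, 12.3 and 11.03 FPKM at 14 d, 12.4, 12.3, 15.4 and 12.6 FPKM at 21 d, and 15.3, 17.0, 10.9 and 13.2 FPKM at 28 d. All samples of 14 d exceeded those of 7 d, and the samples of the last 3 times overlapped. The log2 fold change against 0 d was 0.90 at 5 d (limma adjusted p = 0.000153), 1.96 ± 0.18 at 14 d (SE, adjusted p = 5.49e-10) and 2.20 at 28 d (adjusted p = 5.57e-11), and 0.61, 1.65 and 1.90 after median-ratio scaling. The step from 7 d to 14 d was 0.79 (limma adjusted p = 0.0130), and no other step was called, the step from 3 d to 5 d being 0.47 (limma adjusted p = 0.0638) and, when the 3 d sample at 4.81 or that at 4.86 FPKM was left out, 0.60 or 0.61 and called. Macrophage markers, whose defining genes Adgre1, Cd68 and Csf1r held at least 2.18, 5.12 and 6.55 FPKM in every sample, had a median sum of 170 FPKM at 0 d, 668 FPKM at 3 d, 557 FPKM at 14 d and 482 FPKM at 28 d. The part of that sum in the Tgfb1 result was not tested.

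Tgfb2, a second TGF-beta ligand, lies on chromosome 1 from 186622792 to 186705989 on the minus strand. Its exons share 124 bases with Gm29491 on the other strand, and whether counting used strand is not given in the sources used here. The 0 d samples held 5.46, 6.04, 5.50 and 5.49 FPKM, and those of 1 d held 2.96, 2.68, 3.78 and 3.05 FPKM, all below 0 d. At 1 d the log2 fold change was -0.69 ± 0.08 (SE, limma adjusted p = 1.45e-07). At 3 d the samples were back at 6.38, 5.31, 7.37 and 6.66 FPKM, a step of 0.85 (limma adjusted p = 2.60e-09). No later time was called against 0 d or against its neighbour, and the means from 3 d on stayed between 5.10 and 6.43 FPKM. Between 1 d and 3 d, 2 of the 10 genes were called, Mstn lower and Tgfb2 higher, where 10.6% of tested genes were called. Without the 3 d library that stood apart Fstl1 was called as well.

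Fst encodes follistatin, a secreted protein that binds activins and myostatin, and lies on chromosome 13 from 114452290 to 114458951 on the minus strand, with 115 exon bases shared with Gm47040 on the other strand. Its samples held 2.46, 1.71, 2.099 and 1.95 FPKM at 0 d. Through 5 d the highest sample held 3.31 FPKM. At 7 d the values were 3.60, 6.80, 2.60 and 3.90 FPKM, all above 0 d. At 7 d the log2 fold change was 0.72 (limma adjusted p = 0.00111), but it was 0.45 after median-ratio scaling and 0.51 without the sample at 6.80 FPKM, and neither of these was called.

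From 14 d on the rise of Fst was larger. Its samples held 9.36, 8.11, 8.97 and 10.8 FPKM at 14 d, 8.55, 8.49, 8.37 and 8.56 FPKM at 21 d, and 14.2, 13.3, 9.83 and 12.1 FPKM at 28 d. All 12 exceeded every sample of the first week. The log2 fold change was 1.76 ± 0.18 at 14 d (SE, limma adjusted p = 1.93e-09), 1.64 at 21 d (adjusted p = 8.16e-09) and 2.12 at 28 d (adjusted p = 4.65e-11), and 1.46, 1.43 and 1.83 after median-ratio scaling. The step from 7 d to 14 d was 1.04 (limma adjusted p = 0.000608), and was not called when those 2 groups were fitted alone (adjusted p = 0.0622). The mean at 28 d was 6.01 times that at 0 d.

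Fstl1 and Fstl3 are related to follistatin. Fstl3 binds myostatin and activins in the blood, whereas Fstl1 is a secreted glycoprotein of mesenchymal cells. Fstl1, on chromosome 16 from 37776873 to 37836514, was abundant, at 46.1, 35.3, 40.7 and 31.7 FPKM at 0 d. Its 3 d samples held 17.2, 94.6, 106 and 63.1 FPKM, so that 1 library lay below and 3 lay above every 0 d sample. The log2 fold change at 3 d was 0.59 with a 95% interval of -0.12 to 1.30 (limma adjusted p = 0.185), and 1.15 without the library that stood apart, a change that was called. The 1 d samples held 29.0, 23.1, 32.7 and 40.1 FPKM, and the step from 1 d to 3 d was 0.89 (limma adjusted p = 0.0509) and not called. It was called at 1.46 without the library that stood apart, at 1.02 without the 1 d sample at 40.1 FPKM and at 0.85 after median-ratio scaling (limma adjusted p = 0.0272). The low library is the same in which the fibroblast marker sum was 74.2 FPKM, and the part of that sum in the result was not tested. The log2 fold change at 5 d and 7 d, 0.64 in both cases, was also called in the fit without that library, through a smaller error. After median-ratio scaling the log2 fold change against 0 d was 0.36 at 3 d and 0.26 at both 5 d and 7 d, and was not called. At 7 d the samples again ranged widely, from 36.7 to 99.8 FPKM, while the fibroblast marker sum ranged from 222 to 497 FPKM. By 21 d they held 42.2, 50.3, 37.1 and 41.3 FPKM and overlapped 0 d.

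Fstl3, on chromosome 10 from 79777272 to 79782630, was the lowest of the 10 genes, with 7 to 45 fragments per sample. Of its 2445 exon bases, 1157 are shared with Prss57 on the other strand, which makes its level uncertain. The 0 d samples held 0.186, 0.384, 0.482 and 0.335 FPKM, and those of 21 d held 0.611, 0.705, 0.734 and 0.662 FPKM, all above 0 d. The ratio of the means was 1.96, which on log2(FPKM + 1) was a difference of 0.32 with a 95% interval of 0.04 to 0.61 (limma adjusted p = 0.0653), and it was not called.

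Acvr2b encodes the activin receptor type IIB, a binding receptor for myostatin, and lies on chromosome 9 from 119402118 to 119434995 on the plus strand. It held 2.91, 2.63, 2.99 and 2.55 FPKM at 0 d, or 154 to 179 fragments per sample. At 1 d the samples held 1.31, 1.42, 1.31 and 1.54 FPKM, and at 3 d 0.648, 1.02, 0.766 and 0.513 FPKM. Every sample of 1 d lay below every sample of 0 d, and every sample of 3 d lay below every sample of 1 d. The level then stayed low, at 0.787, 0.967, 0.906 and 0.909 FPKM at 5 d, at 0.899, 1.08, 1.18 and 1.01 FPKM at 14 d and at 1.11, 1.00, 1.09 and 1.02 FPKM at 28 d. Against 0 d the log2 fold change was -0.65 ± 0.08 at 1 d (SE, limma adjusted p = 1.01e-07), -1.12 at 3 d (adjusted p = 6.97e-13) and -0.87 at 28 d (adjusted p = 1.72e-10). In means of FPKM, 3 d stood at 0.266 and 28 d at 0.381 of 0 d. The step from 1 d to 3 d was -0.47 (limma adjusted p = 1.57e-05), under the fold threshold, and no later step was called, with log2 changes of -0.02 to 0.13.

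**Figure D2:**
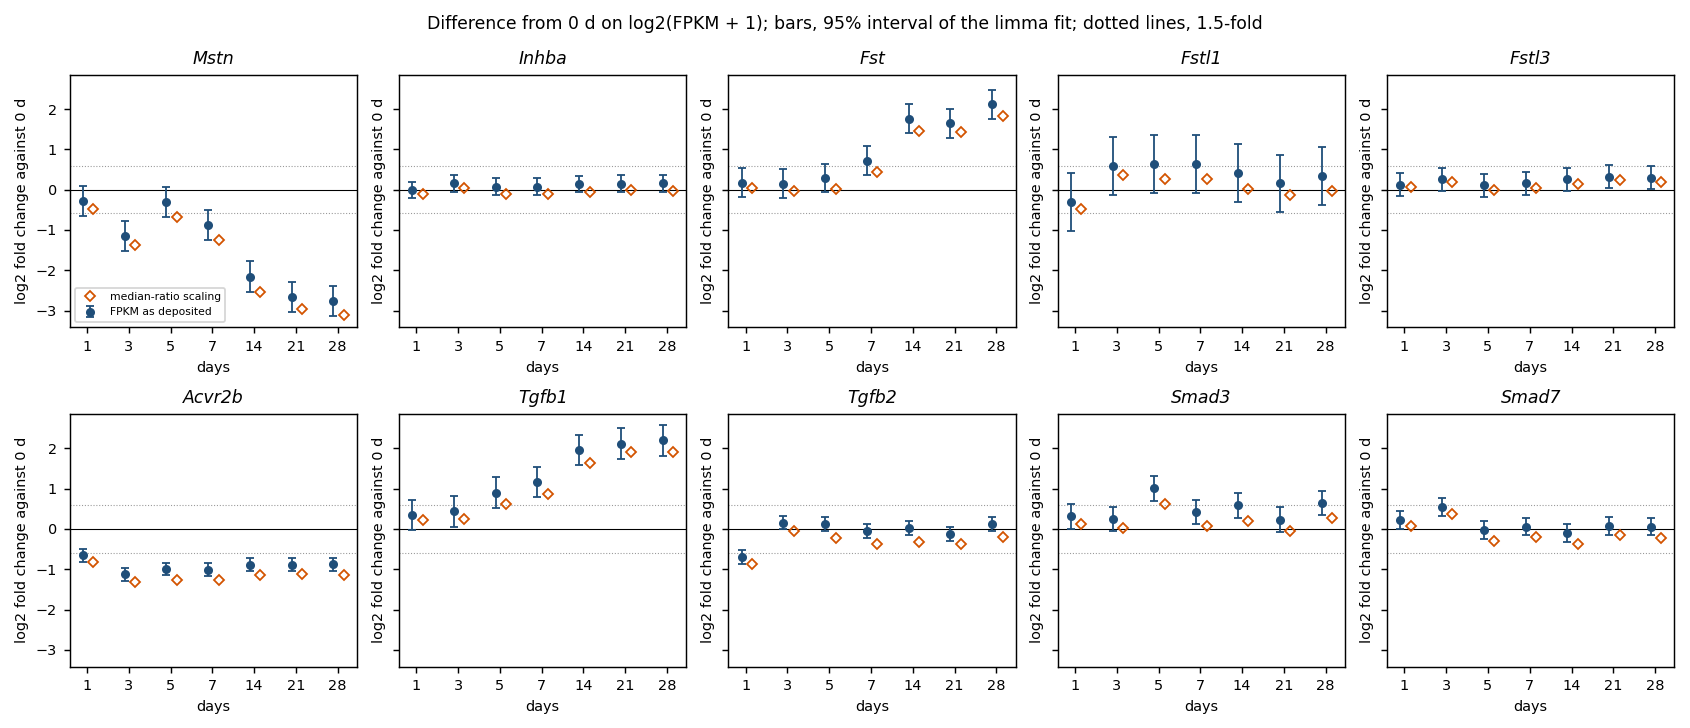
Log2 fold change against 0 d on log2(FPKM + 1) for each gene (vertical axes) by day (horizontal axes). Filled circles are values as deposited with the 95% interval of the limma fit over 32 samples, open diamonds are values after median-ratio scaling, and dotted lines mark 1.5-fold. Acvr2b lies below -0.59 at all 7 times, and the diamonds of Smad3 at 28 d and Fst at 7 d, at 0.27 and 0.45, fall inside the dotted lines.

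Smad3, the transcription factor that carries the signal of both myostatin and TGF-beta, lies on chromosome 9 from 63646767 to 63757994 on the minus strand. Its samples held 14.7, 16.0, 17.4 and 19.3 FPKM at 0 d and 15.5, 16.6, 23.0 and 26.8 FPKM at 3 d. At 5 d they held 30.6, 33.6, 40.8 and 34.2 FPKM, above every sample of those times. At 5 d the log2 fold change was 1.00 ± 0.15 (SE, limma adjusted p = 1.79e-06) and 0.63 after median-ratio scaling, and the step from 3 d to 5 d was 0.76 (adjusted p = 0.000262). At 7 d the values were 21.9, 32.5, 19.1 and 19.95 FPKM, with a single sample as high as at 5 d. The samples of 14 d, at 24.2, 23.8, 28.7 and 25.9 FPKM, all exceeded 0 d, by 0.58 on the log2 scale (limma adjusted p = 0.00169), just under the fold threshold, and by 0.20 after median-ratio scaling. Without the 0 d sample at 17.4 or at 19.3 FPKM, or the 14 d sample at 24.2 or at 23.8 FPKM, it was 0.60 to 0.65 and was called. The samples of 28 d, at 28.8, 28.2, 24.8 and 25.0 FPKM, all exceeded 0 d, by 0.64 on the log2 scale (limma adjusted p = 0.000664). That value was 0.27 after median-ratio scaling (limma adjusted p = 0.117) and 0.58 without the 0 d sample at 14.7 FPKM, and was called in neither case. From 3 d to 5 d, 2 of the 10 genes were called, Mstn and Smad3, both higher, where 5.76% of tested genes were called in either direction.

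Smad7, the inhibitory Smad, lies on chromosome 18 from 75367529 to 75395935 on the plus strand. It held 2.04, 2.30, 2.68 and 2.12 FPKM at 0 d and 2.86, 4.94, 3.70 and 3.71 FPKM at 3 d. All 3 d samples lay above 0 d. The difference of 0.54 on the log2 scale (limma adjusted p = 0.000158) was just under the fold threshold, and was 0.63 and called without the library that stood apart. After median-ratio scaling the log2 fold change against 0 d was 0.37 at 3 d, -0.29 at 5 d and -0.39 at 14 d. All of these were under the fold threshold, with limma adjusted p of 0.000927, 0.00828 and 0.000745. At 5 d the samples were at 2.00, 2.22, 2.26 and 2.47 FPKM, below all of 3 d. That step was -0.55 (limma adjusted p = 0.000305), which missed the fold threshold, and -0.66 after median-ratio scaling, -0.65 without the 3 d library that stood apart and -0.59 without the 5 d sample at 2.47 FPKM, which passed it.

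Ratios of a pair of genes within a sample do not move with the scaling between samples. Of 42 comparisons of 6 ratios with 0 d, 25 had groups that did not overlap. Each of these had an exact permutation p of 0.0286, two-sided, the smallest that 4 against 4 samples allow. Their adjusted p of 0.0480 over the 42 follows from the number of such comparisons. The ratios share genes and the same 0 d samples, so the comparisons are not independent. No share for ratios of other gene pairs was computed. For single genes, between 28.5% and 45.7% of tested genes did not overlap 0 d at the 7 times. The ratio of Fst to Mstn, antagonist to ligand, was 0.0648, 0.0493, 0.0395 and 0.0364 in the 0 d samples. It was 1.41, 1.19, 0.594 and 1.10 at 14 d, 1.49, 1.44, 1.39 and 1.27 at 21 d, and 2.94, 2.88, 1.39 and 1.86 at 28 d. At 3 d it was 0.0503, 0.160, 0.159 and 0.164, so that the library that stood apart lay among the 0 d samples and the other 3 above them, with a geometric mean of 0.120 and, without that library, 0.161. At 5 d and 7 d every sample also lay above 0 d, with geometric means of 0.0765 and 0.170. In FPKM, which is per length, Mstn thus exceeded Fst in every sample of 0 d and Fst exceeded Mstn in every sample of 21 d and 28 d. The difference from 0 d in the log2 ratio was 4.47 at 14 d, 4.91 at 21 d and 5.55 at 28 d.

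The ratio of Tgfb2 to Tgfb1 also turned over. Its geometric mean was 2.51 at 0 d and 0.983 at 1 d, was 1.93 at 3 d, and was 1.22, 0.855, 0.495, 0.389 and 0.447 on days 5, 7, 14, 21 and 28, and the groups overlapped 0 d at 3 d alone. The 3 d samples held 4.14, 1.10, 1.52 and 2.02, the first in the library that stood apart, and the geometric mean without it was 1.4995. Inhba to Mstn was above 0 d from 3 d on, with a geometric mean of 0.0181 at 0 d and 0.178 at 28 d. At 3 d it was 0.0514, and 0.0657 without the library that stood apart. Fst to Inhba was above 0 d from 7 d on, from 2.56 at 0 d to 12.2 at 28 d. Smad7 to Smad3 was 0.136 at 0 d and lay below it at 5 d, 14 d and 28 d, with 0.0645, 0.0797 and 0.0902. Fstl3 to Fst differed at 28 d alone, at 0.0522 against 0.161.

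**Figure D3:**
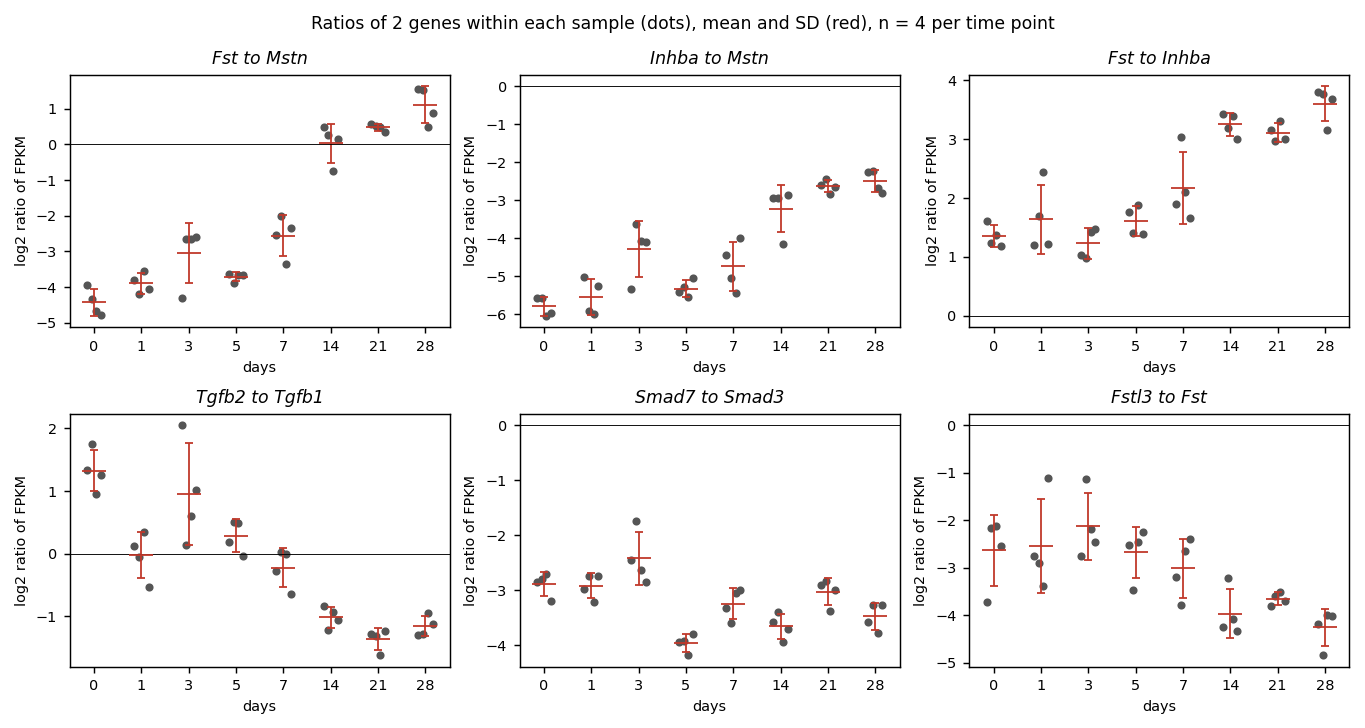
Log2 ratio of the FPKM of 2 genes within each sample (vertical axes) by day (horizontal axes). Dots are samples, red bars the mean and SD of 4, and the black line marks equal FPKM. The ratio of Fst to Mstn lies below the line through 7 d and above it in all samples of 21 d and 28 d.

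Across the 32 samples, Mstn had a Pearson r of -0.889 with Fst and -0.880 with Tgfb1, and Fst had 0.931 with Tgfb1, on log2(FPKM + 1). These coefficients describe samples that share time points. By the same measure, over genes averaging 1 FPKM or more, the genes most like each member were Synm (0.937) and Carnmt1 (0.931) for Mstn, Ass1 (0.960) and Whrn (0.956) for Fst, and Hspa4l (0.965) and Nme4 (0.961) for Tgfb1. For Acvr2b they were AC122818.4 (0.957) and Asb18 (0.955), and for Fstl1 they were Dpysl3 (0.955) and Fbn1 (0.953). The remaining genes had weaker partners. Inhba went with Plpp2 (0.803) and Tgfbi (0.793), Fstl3 with Cdr2 (0.801), Tgfb2 with Synpo2l (0.836) and Nfic (0.83), Smad3 with Herc1 (0.843) and Bace1 (0.835), and Smad7 with Tatdn2 (0.850) and Nfkbia (0.810).

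The rest of the pathway was taken from a list of 51 further genes, of which 50 passed the filter and Foxh1 did not. Of these, 29 were called against 0 d at 1 or more times, 25 higher and 4 lower, where 33.2% of all tested genes were called at 1 or more times, 25.7% higher and 8.19% lower. The 4 lower were Gdf11, Ltbp4, Itgb6 and Acta2. At 14 d, 21 were higher and 1 lower, with 14.6% and 3.83% of all tested genes called in those directions, and the list had a median log2 fold change of 0.47 against 0.15 for all tested genes and 0.32 for those averaging 1 FPKM or more. At 1 d, 7 were higher and 3 lower (6.34% and 2.49% of tested genes). On day 3 the counts were 17 and 3 (13.2% and 6.03%), and without the library that stood apart 24 and 3 (15.4% and 5.58%). On day 5 they were 19 and 1 (14.9% and 3.86%), and on day 7 they were 20 and 2 (15.4% and 4.10%). On day 21 they were 11 and 0 (11.8% and 3.93%), and on day 28 they were 20 and 0 (14.2% and 4.10%). The split moved with the scaling. After median-ratio scaling 9 were higher and 4 lower at 14 d (6.56% and 7.53% of tested genes), 5 and 4 at 1 d (4.14% and 4.68%), and 12 and 4 on day 3 (9.0% and 9.15%). The counts were then 12 and 4 on day 5 (6.70% and 7.68%), 14 and 5 on day 7 (7.15% and 7.92%), 10 and 3 on day 21 (6.43% and 7.15%), and 13 and 5 on day 28 (6.57% and 8.11%).

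Among the other ligands, Gdf11, the closest relative of Mstn, was lower at 1 d and at 3 d, where its mean was 1.28 FPKM against 4.08 FPKM at 0 d and its log2 fold change -1.15 (limma adjusted p = 7.26e-08). It was not called at later times, unlike Mstn, though the difference between both genes was not tested. Tgfb3, the third TGF-beta ligand, was higher at 5 times, from 7.40 FPKM at 0 d to 24.5 FPKM at 14 d. Inha and Inhbb, subunits of inhibins and activin B, had called increases at 28 d, to 2.93 and 2.23 FPKM from 1.14 and 1.09 FPKM. After median-ratio scaling the Inhbb change was 0.41 and was not called.

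TGF-beta is secreted in a latent form, and of 14 genes of its storage and release 6 were called higher and 2 lower at 1 or more times, with 25.7% and 8.19% of all tested genes. After median-ratio scaling the counts were 5 and 2. Ltbp2, Nrros and Furin were higher at 2, 5 and 5 times as deposited. The largest log2 fold change of Furin, 0.76 at 14 d, was 0.43 after median-ratio scaling, under the fold threshold. Ltbp4 was lower at 1 d and 3 d, with a log2 fold change of -1.18 at 3 d (limma adjusted p = 2.75e-07). Ltbp3, a latent TGF-beta binding protein, was higher at 6 times and reached 20.6 FPKM at 28 d from 6.91 FPKM. The integrin subunit Itgb8, which activates latent TGF-beta, was higher at 5 times, with 0.543 FPKM at 0 d and 3.94 FPKM at 14 d. The integrin subunit Itgb6, with the same known role, was lower at 4 times, at 0.461 FPKM at 1 d against 5.34 FPKM at 0 d. Thbs1, another activator, was higher at 1 d (21.8 against 5.89 FPKM), at 3 d and, as deposited but not after median-ratio scaling, at 7 d. Of the 4 antagonists and matrix binders, 1 was called higher at 1 or more times, near the share of all tested genes (25.7%). This was Bgn, higher at 6 times, from 18.1 FPKM at 0 d to 74.6 FPKM at 5 d, while Wfikkn1, Wfikkn2 and Dcn were not called as deposited. After median-ratio scaling Dcn was lower at 7 d, with a log2 fold change of -0.62.

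Of 7 other receptors 4 were called higher and 0 lower at 1 or more times as deposited, with 25.7% and 8.19% of all tested genes. After median-ratio scaling Acvr1b and Eng were lower at 28 d, with log2 fold changes of -0.62 and -0.72, as were 8.11% of tested genes. Tgfbr1, the type I receptor of TGF-beta, was higher at all 7 times as deposited, with 6.88 FPKM at 0 d and 35.8 FPKM at 5 d (log2 fold change 2.22, limma adjusted p = 1.01e-15). After median-ratio scaling Tgfbr1 was not called at 1 d. Acvr2a, the sister receptor of Acvr2b, was higher at 1 d, at 16.5 FPKM against 9.03 FPKM, when Acvr2b was lower. It was called again at 14 d, with a log2 fold change of 0.60 that was 0.23 after median-ratio scaling. Tgfbr2 and Tgfbr3 were each higher at 5 times, yet Tgfbr2 was called at none of them after median-ratio scaling and Tgfbr3 at 7 d alone. Smad2 was called at 3 times, at 4.58 FPKM against 2.58 FPKM at 28 d, and at none after median-ratio scaling. Zfyve9, which brings Smad2 and Smad3 to the receptor, was not called as deposited, but was lower on days 3, 14, 21 and 28 after median-ratio scaling, with a log2 fold change of -0.74 at 3 d against -0.52 as deposited.

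Of 8 inhibitors of the signal inside the cell, Tgif1, Skil and Pmepa1 were called as deposited at 1 or more times, all higher, a share to be read against the 25.7% of all tested genes that were. Ppm1a, a phosphatase of Smad2 and Smad3, had a log2 fold change of -0.58 at 28 d (limma adjusted p = 3.23e-09), just under the fold threshold, and after median-ratio scaling it was called lower on days 5, 7, 14, 21 and 28, with -0.94 at 28 d. Tgif1, a corepressor that binds Smad proteins, was higher at all 7 times, with 1.23 FPKM at 0 d, 11.6 FPKM at 1 d, 12.04 FPKM at 3 d and 5.36 FPKM at 28 d. Skil was highest at 3 d, at 6.40 FPKM against 2.35 FPKM, and Pmepa1 also, at 10.98 FPKM against 4.49 FPKM. Smad7 had its own highest mean at 3 d, at 3.80 FPKM.

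Of 10 genes known as targets of TGF-beta, 2 were higher at 1 d and 5 at 3 d, and on days 5, 7, 14, 21 and 28 the count was 7, 6, 6, 5 and 6, where between 6.34% and 15.4% of all tested genes were called higher. Without the 3 d library that stood apart the count at 3 d was 8. After median-ratio scaling it was 2, 5, 5, 5, 3, 4 and 5 over the 7 times, where between 4.14% and 9.0% of tested genes were called higher. Timp1, an inhibitor of matrix metalloproteinases, rose from 1.19 FPKM to 26.2 FPKM at 1 d and 35.7 FPKM at 3 d. Ccn2 was at 22.8 FPKM at 3 d against 5.02 FPKM. Postn, a matrix protein, was at 3.44 FPKM at 0 d, 29.7 FPKM at 3 d and 55.3 FPKM at 28 d. Acta2 was lower at 7 d and 14 d and, after median-ratio scaling, at all times but 3 d. The fibroblast marker sum had a median of 190 FPKM at 0 d, 370 FPKM at 5 d and 301 FPKM at 28 d. The most abundant of its 5 genes weigh most in that sum, and the 5 need not have moved alike. The part of the sum in these changes was not tested.

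**Figure D4:**
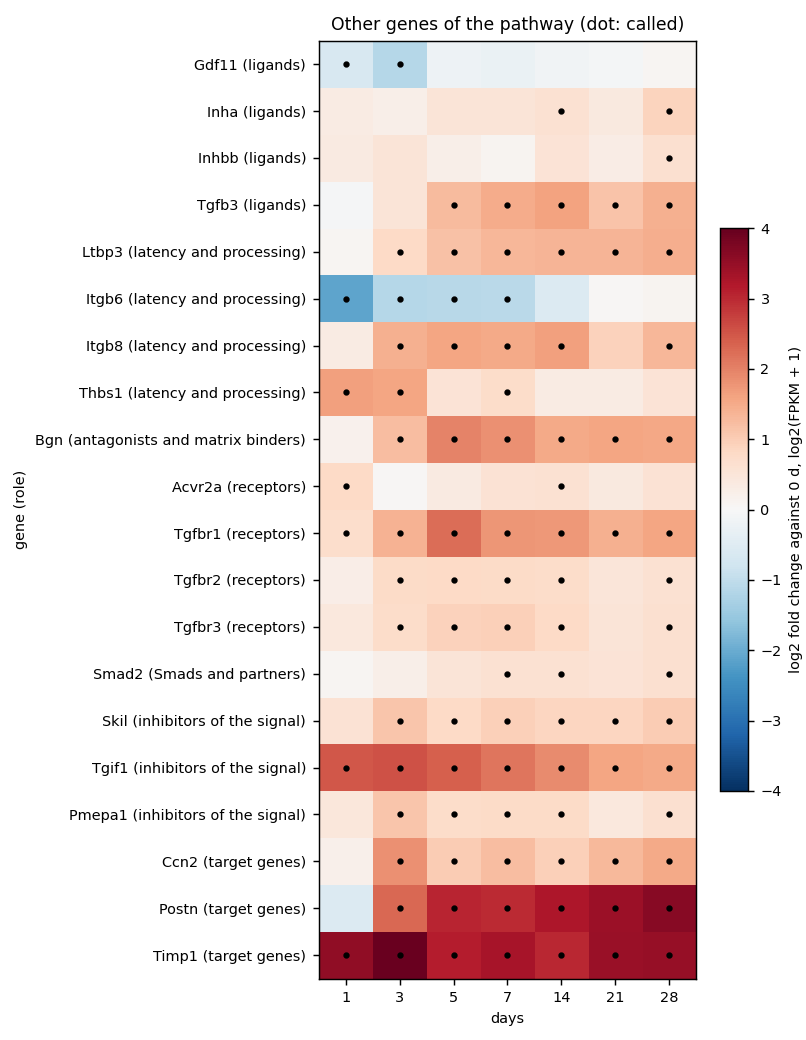
Log2 fold change against 0 d on log2(FPKM + 1) (colour) for the named genes of the pathway list (rows, with role) by day (columns), with dots where a gene was called. Tgfbr1, Tgif1 and Timp1 carry dots at all 7 times, and Itgb6 and Gdf11 are the rows that carry dots on blue.

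**Figure D5:**
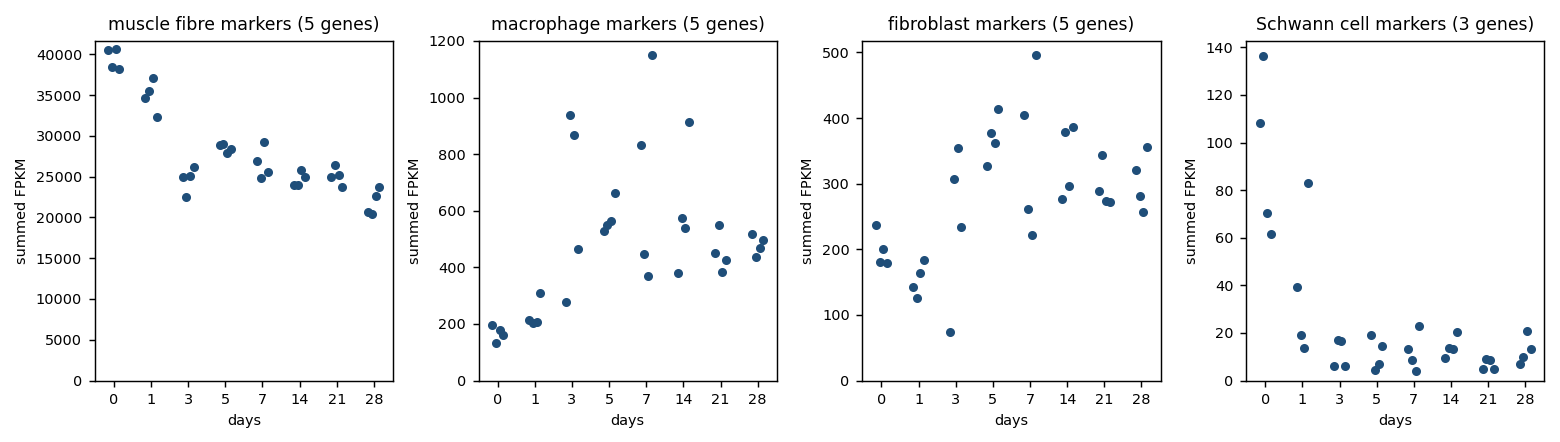
Summed FPKM of marker genes in each sample (vertical axes, linear from 0) by day (horizontal axes). Each dot is a sample. Fibre markers lie between 38212 and 40654 at 0 d and between 20468 and 23695 at 28 d, macrophage markers between 131 and 195 and between 436 and 519, and Schwann cell markers between 61.6 and 136 and between 7.01 and 20.9.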

How the data were processed

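RNA sequencing of GAS muscle covered 32 samples at 8 time points, 4 each. The authors deposited 1 FPKM value per gene and sample. Per the labels, the submitters' processing notes name CASAVA, HISAT2 2.1.0, DESeq2 and the build GRCm38. The counter, the annotation and the use of strand are not given in the sources used here. FPKM values multiplied by merged exon lengths of GENCODE mouse release 21 gave whole fragments (within 0.05) for 99.3% to 99.4% of values under 200 fragments, a computed and not a deposited depth. Columns without a day were taken as 0 d, and columns of a time point were used as 4 samples of a group.

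Values were tested on log2(FPKM + 1) with limma 3.58.1 in R 4.3.3 (lmFit, eBayes with a variance trend) in a single fit of all samples, for genes that reached 0.1 FPKM in 4 or more samples. Calls needed a Benjamini-Hochberg adjusted p under 0.05 over all genes tested and 1.5-fold. Ratios within a sample were tested by exact permutation, two-sided. Across 13405 genes, replicates had a median r of 0.987 and a minimum of 0.963, against a median of 0.944 between time points, and no pair held identical values. On simulated data for 14 d against 0 d, 141 of 200 genes changed 2-fold were recovered (70.5%) and 4 unchanged genes of 20915 were called.

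The members and gene lists were chosen with earlier results of these data known. All 10 members are named, plus up to 4 called genes per role of the pathway list with the largest changes, and the 2 genes most like each member. A few genes picked in this way are not reported here. Wfikkn1, Wfikkn2, Dcn, Foxh1, Ltbp2, Ltbp4, Nrros, Furin, Acvr1b, Eng, Ppm1a, Zfyve9 and Acta2 were named after their values were seen. Of the 10 members, 8 had a promoter entry. Alternatives covered the pseudocount, filters, scaling (TPM, median-ratio, quantile, without mitochondrial genes), the variance trend, thresholds, the samples fitted, limma-voom on recovered fragments and leaving out each sample. Other steps used Python 3.11.15 with scipy 1.17.1, pandas 2.3.3, numpy 2.4.6 and, for figures, matplotlib 3.10.9.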

Additional observations from a re-analysis of the deposited data

Results flagged for a closer look

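In 9 of 80 groups of 4 samples, a single sample lay beyond Dixon's 95% critical value, where chance alone gives about 4. The high samples were Inhba at 14 d (1.35 FPKM, others 0.855 to 0.892), Fstl3 at 1 d (1.04 FPKM, others 0.266 to 0.346) and at 14 d (0.871 FPKM, others 0.489 to 0.542), Tgfb1 at 1 d (4.40 FPKM, others 2.71 to 2.97) and at 21 d (15.4 FPKM, others 12.3 to 12.6), and Tgfb2 at 0 d (6.04 FPKM, others 5.46 to 5.50) and at 5 d (6.54 FPKM, others 6.03 to 6.11). The low samples were Mstn at 5 d (31.4 FPKM, others 36.7 to 37.4) and Fstl3 at 5 d (0.225 FPKM, others 0.511 to 0.540). The 1 d sample that was high in Fstl3 was the same that was high in Tgfb1, and its marker sums were the highest of 1 d for macrophages (309 FPKM, others 205 to 213), neutrophils (82.4, others 5.73 to 41.5), Schwann cells (83.1, others 13.8 to 39.3), endothelial cells (84.3, others 68.6 to 73.4) and fibroblasts (183, others 126 to 165), as well as for smooth muscle and T cells. Their part in these values was not tested.

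The effect against 0 d differed between neighbouring time points, by the limma test of the step itself, for 7 steps of 5 genes. For Mstn the log2 steps were -0.86 from 1 d to 3 d, 0.85 from 3 d to 5 d and -1.27 from 7 d to 14 d. For Fst the step was 1.04 and for Tgfb1 0.79 from 7 d to 14 d. For Tgfb2 it was 0.85 from 1 d to 3 d, and for Smad3 0.76 from 3 d to 5 d.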

How the results depend on the processing

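Of the 31 called pairs of gene and comparison, 28 kept direction and call under every alternative run other than the 2-fold threshold. The exceptions were Fst at 7 d, Smad3 at 28 d and Fst from 7 d to 14 d. No called change reversed. Of 99 uncalled pairs, 43 changed sign under at least 1 alternative, 22 of them under median-ratio scaling. With the 2-fold threshold the number of the 10 genes called was 0, 1, 2 and 3 on days 1, 5, 7 and 28 (2.67%, 6.53%, 7.15% and 6.38% of tested genes), and 0 for the steps from 1 d to 3 d and from 3 d to 5 d (3.57% and 1.62%). Rescaled to TPM it was 4 at 3 d and 4 from 1 d to 3 d (28.8% and 14.9%). From 1 d to 3 d it was 4 without a fold threshold (30.9%) and 4 with limma-voom on recovered fragments (18.6%), which also gave 4 from 3 d to 5 d (12.9%). From 5 d to 7 d, where no gene was called, 1 was called (Smad3) with a pseudocount of 0.1, quantile normalization, scaling without mitochondrial genes, no fold threshold or limma-voom, where 0.666% to 1.96% of tested genes were called. The cause of these moves was not tested beyond the thresholds themselves. Leaving out single samples, the number called ranged from 2 to 5 at 3 d, with 5 when the 3 d library that stood apart was left out, and from 0 to 1 between 5 d and 7 d, with 1 when the first 5 d or the second 7 d sample was left out. Leaving out a sample cannot create an overlap, so the 25 ratio comparisons without overlap could only stay or grow, and were 25 to 30. With a pseudocount of 0.1, 26 ratio comparisons had an adjusted p under 0.05 by exact permutation. No paired analysis was possible because the columns of the table give the time point and a letter that the labels do not tie to the numbered samples. For the pathway list at 3 d, leaving out the library that stood apart was chosen after seeing the data, and the count of genes called higher went from 17 to 24. Fstl3 and Inhba held 7 to 45 and 60 to 143 fragments per sample, and the effect of depth on their calls was not tested.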
